A study of Homo sapiens with 6 samples.

Results

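This account covers 6 genes of cytosolic DNA sensing: AIM2, IFI16, CGAS, STING1, ZBP1 and TREX1. Their members on the array are the probe sets that the platform annotation assigns to 1 of these symbols and to no other gene. By that rule 5 of the 6 genes were measured, by 11 of the 54613 probe sets that are not controls. AIM2 had 1 probe set, IFI16 and CGAS had 3 each, and STING1 and ZBP1 had 2 each. TREX1 had none of its own, because each of the 3 probe sets that name it also names ATRIP, its neighbour in the RefSeq gene order.

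Cells keep DNA in the nucleus and in mitochondria, and DNA in the cytosol is read as a sign of infection or damage. The enzyme cGAS, encoded by CGAS, binds such DNA and makes the messenger cGAMP, which activates the membrane protein STING, encoded by STING1, and through it the kinase TBK1 and the interferon regulatory factor IRF3. AIM2 and IFI16 belong to the PYHIN family, whose HIN domain binds DNA; AIM2 then gathers the adaptor ASC (PYCARD) and caspase 1 into an inflammasome. ZBP1 recognises left-handed nucleic acid and engages RIPK3 in necroptosis, and TREX1 is an exonuclease that removes cytosolic DNA. Several of these genes are themselves known to be induced by interferon.

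All arrays were hybridised with RNA from SNU-449, an established human liver cancer line. The 3 control arrays are labelled as cells with vector (genotype Ctrl), which the series text calls an empty vector. The other 3 are labelled as cells with USP48 (genotype USP48 OE). USP48 is a ubiquitin-specific protease. For the latter the protocol describes infection with a lentivirus carrying USP48 and selection of stable cells in puromycin, while the titles speak of transfection. The sources used here do not say whether the vector cells received an empty lentivirus, so infection may differ between the groups along with the label. They also do not say whether the selected cells were a pool or a clone, which promoter drove USP48, or whether replicates were grown separately. The p-values therefore reflect the spread of these arrays alone, which may be technical.

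The label was not borne out by USP48 itself. Its 5 probe sets had log2 differences, labelled USP48 minus empty vector, between −0.82 and 0.24, and by limma with Benjamini-Hochberg adjustment over all probe sets (threshold 0.05) 0 were called higher and 220078_at (−0.63) and 220079_s_at (−0.82) were called lower (adjusted p = 8.5e-04 and 1.3e-04). These counts moved with the processing: 229812_at was called higher with quantile normalization (0.305, adjusted p = 0.0407), and the remaining 2 (−0.422, adjusted p = 0.00731, and −0.541, adjusted p = 0.00894) were called lower as well when each array was scaled on its hybridization controls. Whether the delivered construct holds the sequences these probes read was not analysed here, and a direction drawn below is that between libraries as labelled. The 18 hybridization control probe sets were on average 0.29 higher on the log2 scale in the USP48-labelled arrays (exact permutation p = 0.1, and no smaller p is possible with 3 arrays a side). The 24 poly-A control probe sets were on average 0.42 higher in that group, without overlap (exact permutation p = 0.1). The GAPDH 5′ signal minus the GAPDH 3′ signal, which falls when RNA is broken, was lower in every USP48-labelled array. It was −0.51, −0.45 and −1.31 in USP48 replicates 1, 2 and 3, against −0.32, −0.37 and −0.44 in the empty vector arrays (exact permutation p = 0.1). Replicate 3 of the USP48 group stood furthest apart. The same measure for ACTB differed by −0.36, with overlapping groups (exact permutation p = 0.2). As for cell type, the epithelial keratin KRT18 was at 11.79 and KRT8 at 10.88 in the empty vector arrays, while the liver product ALB was at 2.07 and 6 of 12 measured hepatocyte and hepatoma markers lay below the median of every array in both groups. Of these 12 markers 1 rose and 1 fell, no more than the shares over all genes (15.7% higher and 14.1% lower). ASGR1, a hepatocyte lectin receptor, differed by 0.39 (limma adjusted p = 0.0278). It read 3.53 in the empty vector arrays, below the median of every array, and 3.93 in the USP48-labelled arrays. It was not called with hybridization control scaling (0.10), or without empty vector replicate 3 (0.266) or USP48 replicate 2 (0.33). CPS1, a urea cycle enzyme, fell by 1.41 from a bright 9.80 (adjusted p = 3.18e-06). Of 7 epithelial and mesenchymal structural markers, 4 fell and 0 rose (0 were higher at an unadjusted p under 0.05), with a median of −0.38 beside 0.05 over all genes. The 4 were the cadherin CDH2 (−0.65, adjusted p = 0.00107), the intermediate filament VIM (−0.42 from 11.57, adjusted p = 0.00714; not called as the mean of its probe sets, −0.265), EPCAM (−0.42, adjusted p = 0.00919) and CDH1 (−0.38, adjusted p = 0.0168). The epithelial markers KRT19 and CDH1 were dim, at 2.81 and 2.95 in the empty vector arrays. The part of these shifts in the differences of the DNA sensors was not tested.

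The DNA sensors were mostly higher in the arrays labelled USP48. Of the 11 probe sets, 9 rose and 0 fell by limma (adjusted p under 0.05 over all probe sets; 0 were lower at an unadjusted p under 0.05), and the median log2 difference of the 11 was 0.89 against 0.03 for all probe sets. The 9 included all probe sets of AIM2, IFI16 and STING1, 2 of 3 of CGAS and 1 of 2 of ZBP1. For comparison, 24.3% of all probe sets were called, 10.6% higher (5768) and 13.8% lower (7519). The groups did not overlap in those same 9 probe sets, against 18.8% of all probe sets that lay higher without overlap. The 11 probe sets read only 5 genes and are not independent. With each gene read by its brightest probe set, AIM2, IFI16, STING1 and CGAS were called higher. ZBP1 was not (−0.02, limma adjusted p = 0.955), and 15.7% of all genes were called higher. In extracts of many cells, more RNA per cell and more cells that express a gene cannot be told apart.

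**Figure D1:**
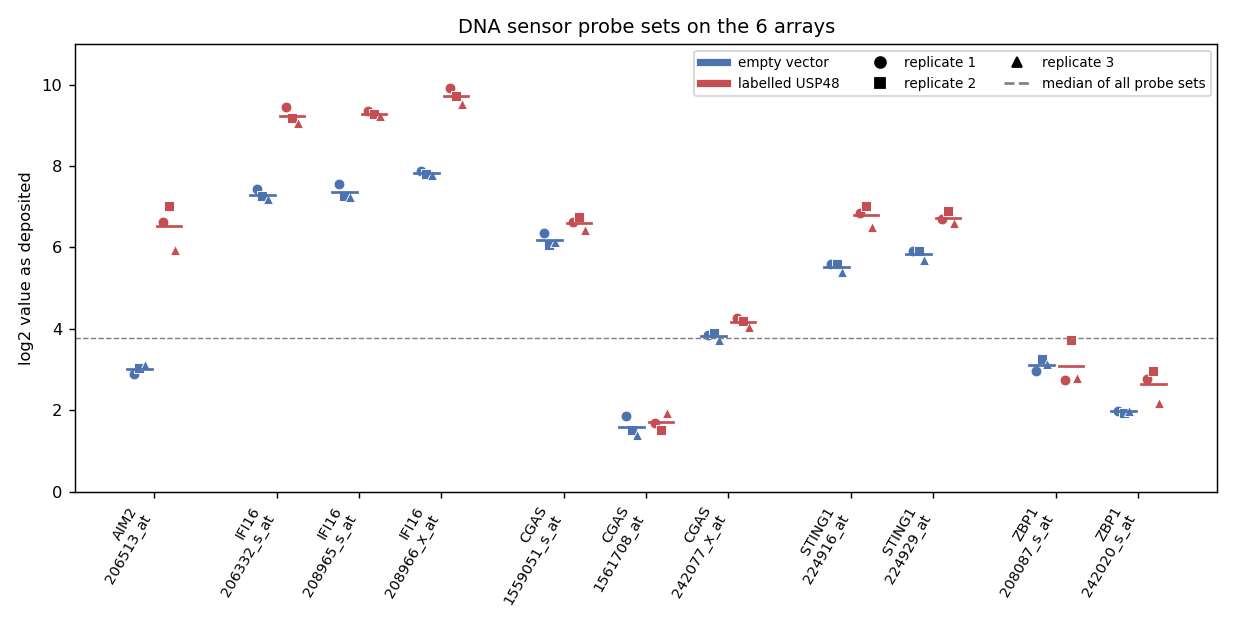
The log2 value of each of the 11 probe sets (horizontal axis, grouped by gene) is plotted for every array, with blue for empty vector and red for labelled USP48, a marker shape for each replicate number and a bar for the group mean of 3 arrays. AIM2 goes from a mean of 3.02, under the dashed median of all probe sets, to 6.52. The 3 IFI16 probe sets move by about the same distance as one another (1.90 to 1.93), which is less than that of AIM2. Both ZBP1 probe sets stay under the dashed line in the group means.

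AIM2, the inflammasome-forming sensor, had the largest difference of the 11 probe sets. Probe set 206513_at read 2.90, 3.04 and 3.11 in empty vector replicates 1, 2 and 3. It read 6.62, 7.02 and 5.93 in the USP48-labelled replicates 1, 2 and 3. Every USP48-labelled array thus lay at least 2.82 above every control array, and replicate 3, the array with the low 5′ to 3′ value, was the lowest of its group. The means were 3.02 ± 0.11 and 6.52 ± 0.55 (SD, n = 3 each), which differ by 3.51 on the log2 scale (SE 0.22; 95% interval 3.03 to 3.99; limma adjusted p = 2.5e-06). Without replicate 3 of the USP48 group it was 3.80. The control mean lay below the median of every array, and without a detection call no fold is given.

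IFI16, the other DNA sensor of the PYHIN family, rose by nearly the same amount in each of its 3 probe sets. Probe set 208966_x_at read 7.89, 7.80 and 7.79 in the empty vector arrays and 9.91, 9.73 and 9.53 in the USP48-labelled arrays. Probe set 206332_s_at read 7.44, 7.27 and 7.19 against 9.45, 9.19 and 9.06, and 208965_s_at read 7.57, 7.28 and 7.23 against 9.34, 9.29 and 9.24. The log2 differences were 1.90 (SE 0.11, 3.73-fold), 1.93 (SE 0.12, 3.81-fold) and 1.93 (SE 0.11, 3.82-fold), with limma adjusted p of 1.79e-06, 2.37e-06 and 1.6e-06. The suffixes x_at and s_at mark probe sets that can also bind related or several transcripts. Between 208965_s_at and 208966_x_at the change differed by 0.03 on the log2 scale, which was within the spread of the arrays (two-sided exact permutation p = 0.8).

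In the RefSeq gene order PYHIN1, PYDC5, IFI16 and AIM2 follow one another on chromosome 1. The remaining measured genes of the family, MNDA and PYHIN1, which are best known from blood cells, did not pass the test in the fit of genes, where each gene is read by its brightest probe set: MNDA had a log2 difference of −0.29 (limma adjusted p = 0.0675) and PYHIN1 one of 0.28 (adjusted p = 0.145, and −0.01 with hybridization control scaling; it was called higher, at 0.437 with adjusted p = 0.0217, without empty vector replicate 3). Both had group means below the median of every array. A call for MNDA appeared with hybridization control scaling, at −0.586 (adjusted p = 0.000547), and without replicate 3 of the USP48 group, at −0.408 (adjusted p = 0.00828).

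Because AIM2 and IFI16 were the members with the largest differences, the 250 bases before their RefSeq start sites (GRCh38.p14) are shown, in lower case with matches to interferon-response letters in capitals. The AIM2 window is chr1:159076767-159077016, minus strand, and the IFI16 window is that of the second of its listed starts, chr1:159009657-159009906, plus strand; both read 5′ to 3′ on the gene's strand.
AIM2: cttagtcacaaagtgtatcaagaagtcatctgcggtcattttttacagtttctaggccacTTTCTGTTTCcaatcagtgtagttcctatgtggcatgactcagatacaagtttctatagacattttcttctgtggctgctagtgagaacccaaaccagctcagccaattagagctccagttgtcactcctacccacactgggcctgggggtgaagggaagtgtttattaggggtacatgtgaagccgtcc
IFI16: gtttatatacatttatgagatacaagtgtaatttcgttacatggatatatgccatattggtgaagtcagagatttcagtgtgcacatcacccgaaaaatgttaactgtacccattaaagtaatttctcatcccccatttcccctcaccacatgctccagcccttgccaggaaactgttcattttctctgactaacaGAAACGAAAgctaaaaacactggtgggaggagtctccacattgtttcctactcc
The capitals in AIM2, 190 to 181 bases before the start, match on the opposite strand the core of the interferon-stimulated response element (ISRE), written as GAAA, any 2 bases, GAAA. The capitals in IFI16, 54 to 46 bases before the start, match a shorter form with 1 base between the GAAA repeats, a form searched after the sequence had been seen. Over both strands, 3.02% of 35116 RefSeq windows of this length held the ISRE core and 2.69% the shorter form; a window can hold both. The core of the interferon-gamma activated site (TTCNNNGAA) and the NF-κB consensus had no match in either printed window, nor had any of these motifs in the window of the other IFI16 start, chr1:159008741-159008990; they occurred in 6.57% and 5.21% of all windows. The window of TREX1, which was also searched, held none of these motifs. A match describes letters and is not a bound site.

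CGAS, the enzyme that makes cGAMP, changed little. Its brightest probe set, 1559051_s_at, read 6.36, 6.06 and 6.14 in the empty vector arrays and 6.62, 6.75 and 6.43 in the USP48-labelled arrays. The groups did not overlap, but by a margin of only 0.07 between the highest control and the lowest USP48-labelled array. The log2 difference was 0.41 (SE 0.11, 95% interval 0.16 to 0.66, 1.33-fold; limma adjusted p = 0.024). It lost its call when empty vector replicate 2 or 3 or USP48 replicate 1 or 2 was left out (0.347, 0.385, 0.401 and 0.335; adjusted p from 0.0141 to 0.102 over the 6 arrays left out in turn).

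The dimmer CGAS probe sets are as follows. Probe set 242077_x_at read 3.85, 3.90 and 3.73 against 4.27, 4.18 and 4.06, which is 0.34 higher (SE 0.10, limma adjusted p = 0.0259). It lost its call without empty vector replicate 1 or 3 or USP48 replicate 1 or 2 (0.351, 0.293, 0.292 and 0.333; adjusted p from 0.0197 to 0.0932 over the same 6). Probe set 1561708_at read 1.847, 1.512 and 1.396 against 1.678, 1.503 and 1.936, below the median of every array in both groups, and the groups overlapped. Its log2 difference was 0.12 with a 95% interval of −0.19 to 0.43 (limma adjusted p = 0.60). No CGAS probe set was called once the arrays were scaled to the hybridization controls, with differences of 0.116, 0.047 and −0.173 (adjusted p = 0.504, 0.767 and 0.293).

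STING1, the receptor of cGAMP, rose in both of its probe sets. Probe set 224929_at read 5.92, 5.91 and 5.70 in the empty vector arrays and 6.70, 6.89 and 6.60 in the USP48-labelled arrays. Probe set 224916_at read 5.60, 5.59 and 5.40 against 6.86, 7.03 and 6.51. In both, all 3 USP48-labelled arrays lay above all 3 controls. The log2 differences were 0.89 (SE 0.11, 1.85-fold; limma adjusted p = 0.000155) and 1.27 (SE 0.13, 2.41-fold; adjusted p = 5.7e-05). The scaled values were 0.597 and 0.974 (adjusted p = 0.00194 and 0.000102). The probe sets differed from each other by 0.38 in their change, and the groups did not overlap in that measure (exact permutation p = 0.1, the smallest possible; the pair was chosen by its values, so this is a description).

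ZBP1, the sensor that engages RIPK3, was dim and its probe sets disagreed. Probe set 242020_s_at read 1.99, 1.93 and 1.99 in the empty vector arrays and 2.77, 2.97 and 2.18 in the USP48-labelled arrays. Probe set 208087_s_at read 2.96, 3.25 and 3.12 against 2.74, 3.74 and 2.79. In the former the groups did not overlap, with replicate 3 closest to the controls, while in the latter USP48 replicate 2 lay above all controls and replicates 1 and 3 below them. The log2 difference of 242020_s_at was 0.67 (SE 0.17, limma adjusted p = 0.0135), and it lost its call without empty vector replicate 2 (0.649) or USP48 replicate 1 (0.605) or 2 (0.505), with adjusted p from 0.000251 to 0.0582 over the 6 arrays left out in turn, and with hybridization control scaling (0.375, adjusted p = 0.107). The log2 difference of 208087_s_at was −0.02 with a 95% interval of −0.51 to 0.47 (adjusted p = 0.96). Group means of both lay below the median of every array, so no fold is given.

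**Figure D2:**
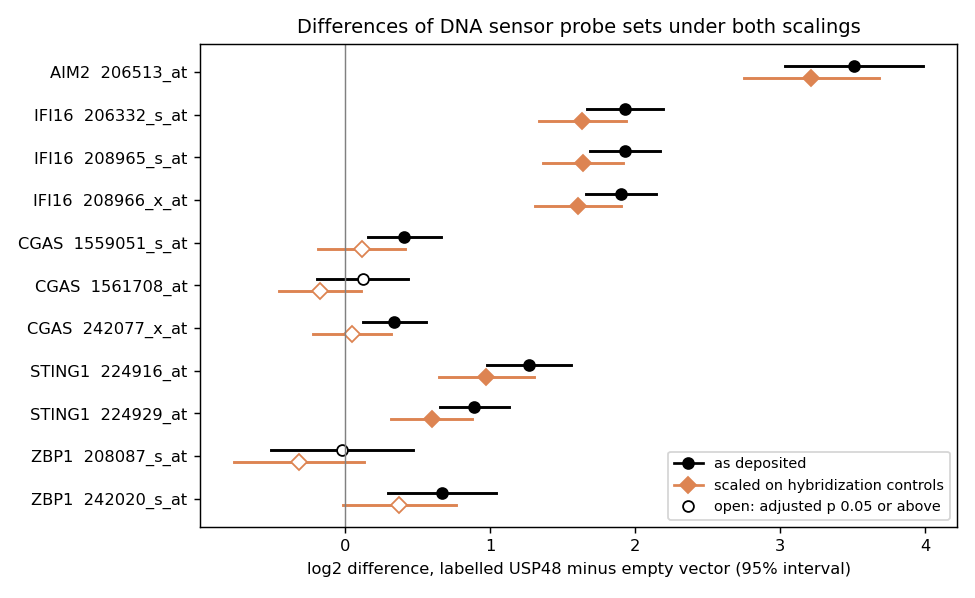
For each probe set the log2 difference, labelled USP48 minus empty vector, is plotted with its 95% interval from limma, as deposited (black circles) and after each array was scaled on its hybridization controls (orange diamonds); open symbols have an adjusted p of 0.05 or above. The scaling lowers every difference by 0.29, and the orange symbols of AIM2, IFI16 and STING1 are filled while the orange symbols of CGAS and ZBP1 are all open.

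That scaling bears on how many members count as higher. Under it the median difference over all genes moved from 0.05 to −0.24, and 6 of the 11 probe sets were called higher, against 3.34% of all probe sets (1826, beside 39.0% lower, 21292). The 6 were those of AIM2 (3.21), IFI16 (1.64, 1.64 and 1.61) and STING1. An adjusted p under 0.01 left the same number of 6, and a limit of 1.5-fold left 7.

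The 9 probe sets that rose also shared a pattern within the USP48 group, which was noticed after the values were seen. In 9 of 9, replicate 3 had the lowest value of the 3 arrays, compared with 38.9% of the 5768 probe sets called higher. The 9 include repeated readings of IFI16, STING1 and CGAS and are not independent. The pattern was not particular to the sensors. Of the 13 called genes in the list of interferon ligands and early targets below, all but IFNB1, MX1 and IRF1 also had replicate 3 lowest. CCL5, for one, read 11.03, 11.35 and 10.10 in USP48 replicates 1, 2 and 3. Replicate 3 is the array with the GAPDH value of −1.31 and the highest mean of the hybridization controls (10.21, against 10.02 and 10.03 in replicates 1 and 2). The part of either measure in these values was not tested. Without that array all 9 probe sets were still called higher.

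**Figure D3:**
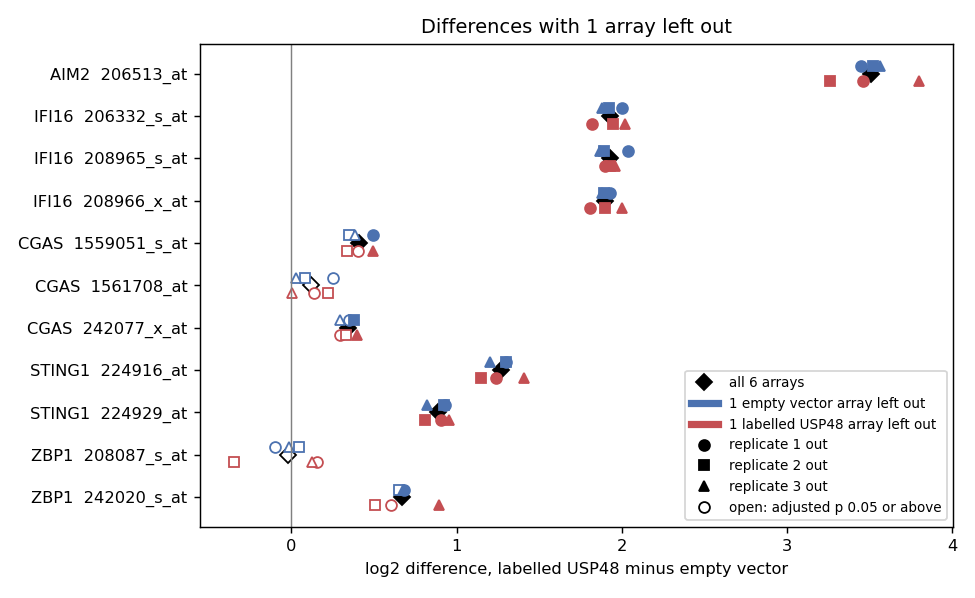
The log2 difference of each probe set is plotted with all 6 arrays (black diamonds) and with each array left out in turn (blue for an empty vector array, red for a USP48-labelled array, marker shape for the replicate number); open symbols have an adjusted p of 0.05 or above. AIM2 ranges from 3.26 to 3.80 and the STING1 probe sets from 0.81 to 1.41 with all symbols filled, whereas ZBP1 208087_s_at lies on both sides of 0.

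To place the members among other genes, those with the most similar profile over the 6 arrays were sought among the 5679 other named genes past the test, by the root mean square distance between log2 profiles centred on their own mean. Nearest to AIM2 were ISG20 and TNFSF10, both at a distance of 0.138, and OAS2 at 0.194; ISG20 and OAS2 are interferon-induced antiviral genes and TNFSF10 encodes the death ligand TRAIL. Nearest to IFI16 were SAMD9 (0.070), NT5E (0.081) and STK17A (0.086). STING1 was closest to FEM1B (0.043), APOL2 (0.053) and SP140L (0.054). For CGAS, whose difference was small, the nearest were KRTAP9-8 (0.023), PSMD6 (0.034) and AVPR1A (0.049). The distances describe 6 arrays in 2 groups and therefore mostly the size of the group difference.

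The genes that act with the sensors were read from lists, with 1 value per gene. Of 19775 genes, 29.8% were called, 15.7% higher and 14.1% lower; with hybridization control scaling the shares were 4.84% and 37.9%.

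In the list of cGAS-STING signalling and its regulators, IRF7, USP18 and TRIM21 had the largest differences as deposited. Of 26 measured genes of this list, 8 rose and 2 fell, with a median log2 difference of 0.05 beside 0.05 over all genes. IRF7, the interferon-inducible regulatory factor, rose from 5.24 ± 0.19 to 7.73 ± 0.19 (SD, n = 3 each), a change of 2.49 in log2 (limma adjusted p = 5.17e-07). USP18, a protease that removes ISG15 and restrains interferon signalling, rose by 2.07 (adjusted p = 1.93e-06) and TRIM21, an antibody receptor and ubiquitin ligase, by 1.64 (adjusted p = 1.05e-05). The kinase TBK1 and the factor IRF3, named here after their values were seen as the direct relays of STING, were at −0.27 (adjusted p = 0.0587) and 0.39 (adjusted p = 0.0080). The 2 that fell were SURF4, at −0.35, and ENPP1, which degrades cGAMP outside the cell, at −0.28 (adjusted p = 0.0185 and 0.0297); both lost the call without empty vector replicate 2 or 3 or USP48 replicate 1 or 2 (SURF4 −0.324, −0.334, −0.287 and −0.334; ENPP1 −0.252, −0.276, −0.259 and −0.259), and when probe sets were averaged (−0.0406 and −0.116). The other SURF4 probe sets were at 0.02 and 0.20 and the other ENPP1 probe sets at 0.09, 0.06 and −0.34. ENPP1 was not called with quantile normalization either (−0.228, adjusted p = 0.0625). With hybridization control scaling 3 of the 26 were higher and 12 lower, the median was −0.25, IRF3 was no longer called (0.101, adjusted p = 0.506) and TBK1 was called lower (−0.562, adjusted p = 0.00211). TBK1 was also called lower with the intensity trend, without the dimmest genes, with the replicate block and by averaged probe sets (−0.268 in each, adjusted p from 0.0333 to 0.0456).

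**Figure D4:**
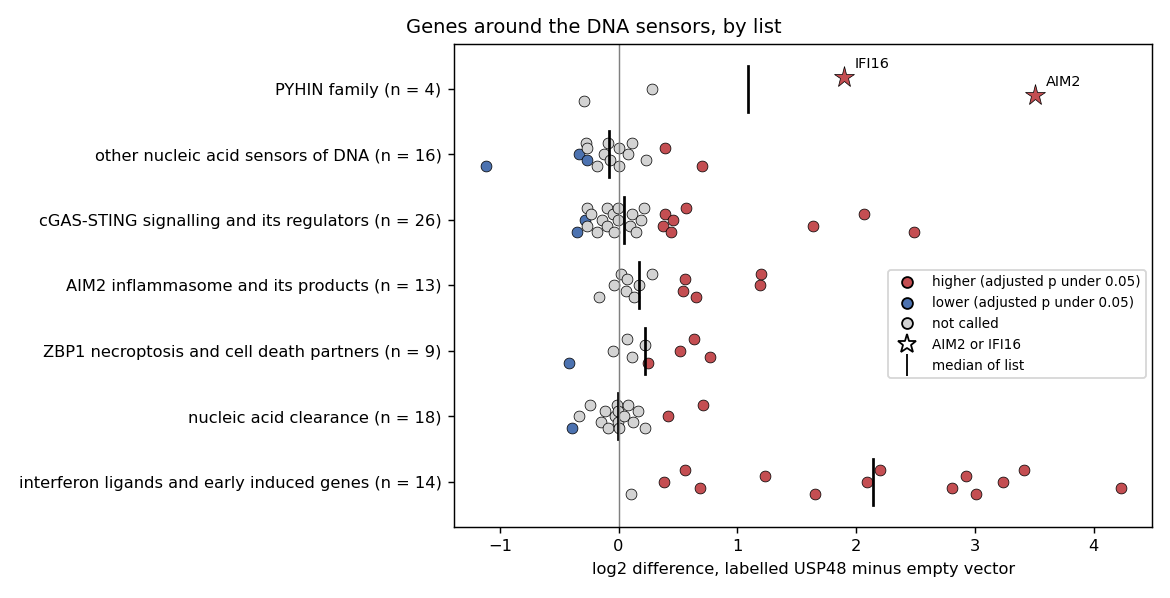
Each point is the log2 difference, labelled USP48 minus empty vector, of 1 gene read by its brightest probe set, in 7 lists of genes (rows, with the number measured); red and blue points were called higher and lower by limma, grey points were not called, stars mark AIM2 and IFI16 and vertical bars the medians. The interferon list has its median at 2.14, while those of the cGAS-STING, clearance and other sensor lists lie between −0.08 and 0.05.

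Partners of AIM2 moved in part. Of 13 measured inflammasome genes, 5 rose and 0 fell (0 were lower at an unadjusted p under 0.05 in limma), with a median of 0.17. IL1B, which encodes the cytokine that caspase 1 matures, rose from 4.70 ± 0.07 to 5.90 ± 0.09 (SD, n = 3 each; log2 difference 1.20, limma adjusted p = 5.1e-06). CASP4, the caspase of the noncanonical inflammasome, rose by 1.19 (adjusted p = 6.1e-06), with a dimmer probe set at 0.18, and IL18 by 0.65 (adjusted p = 0.0024). CARD16 and CASP1 were the others, at 0.56 and 0.55. The CASP1 groups overlapped, and its limma adjusted p of 0.039 rose above 0.05 on omission of any array except USP48 replicate 3 (up to 0.133). Without that array it was 0.000797 and the difference 0.783. The other CASP1 probe sets were at 0.03, 0.54, 0.62 and 0.70, and only the last was called (adjusted p = 0.00777). Their mean with the brightest was not called (0.486, adjusted p = 0.0847). A dimmer CARD16 probe set was at 0.14 (adjusted p = 0.288). The adaptor PYCARD, named after its value was seen, was at 2.88 in the empty vector and 3.16 in the USP48-labelled arrays. Both means lay below the median of every array. PYCARD differed by 0.28 in log2 (limma adjusted p = 0.0529). It was called higher with the mean of its gene's probe sets, quantile normalization, median centring and the replicate block (adjusted p from 0.0417 to 0.0494) and without empty vector replicate 3 (0.366, adjusted p = 0.0214), and stood at −0.014 with hybridization control scaling. With that scaling 2 genes of the list were higher and 2 lower, the median was −0.12, and IL18, CARD16 and CASP1 were not called (0.36, 0.267 and 0.253).

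Partners of ZBP1 in cell death showed small changes. Of 9 measured genes, 4 rose and 1 fell, with a median of 0.22. CFLAR, an inhibitor of caspase 8, rose from 7.78 ± 0.12 to 8.56 ± 0.14 (SD, n = 3 each; log2 difference 0.77, limma adjusted p = 2.4e-04), with its other 13 probe sets between −0.36 and 0.95. MLKL, the executioner of necroptosis, was at 0.63 (adjusted p = 0.0015), CASP8 at 0.51 (adjusted p = 0.0017; other probe sets at 0.13 and 0.18) and CASP6 at 0.25 (adjusted p = 0.0451). With USP48 replicate 2 as the one exception, omission of any array ended the CASP6 call (0.22 to 0.249, adjusted p up to 0.128), as did median centring (adjusted p = 0.0551), the replicate block (adjusted p = 0.0586) and the mean of all probe sets (0.149, adjusted p = 0.133). The gene that fell was TRIM28, at −0.42 (adjusted p = 0.0057). RIPK3, the kinase that ZBP1 engages, named after its value was seen, was at −0.05 (adjusted p = 0.73). With hybridization control scaling 1 gene was higher and 2 lower, the median was −0.07, MLKL (0.338), CASP8 (0.22) and CASP6 (−0.0487) were not called, and RIPK3 was called lower (−0.342, adjusted p = 0.0368).

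Among genes that clear nucleic acid, the list to which TREX1 belongs, 2 of 18 rose and 1 fell, with a median of −0.01. SAMHD1, which depletes nucleotides, was at 0.42 by its brightest probe set (limma adjusted p = 0.0127), and its 5 other probe sets lay between −0.04 and 1.02. LSM11, a histone RNA processing factor, was at 0.71 by its brightest probe set (adjusted p = 1.3e-04), but its 3 other probe sets were called lower, at −0.75, −0.95 and −0.58, and the mean of all 4 gave −0.39. APEX1, a DNA repair nuclease, was at −0.39 (adjusted p = 0.035) and lost its call without empty vector replicate 1 or 2 or USP48 replicate 1 or 3 (adjusted p up to 0.121). SAMHD1 lost its call without empty vector replicate 3 (0.352, adjusted p = 0.0552) and, with hybridization control scaling, was at 0.126 (adjusted p = 0.42), when 1 gene of the list was higher and 9 lower.

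Other proteins reported to sense DNA did not share the rise of AIM2 and IFI16 as a list: 2 of 16 rose and 3 fell, with a median of −0.08. PRKDC, the catalytic subunit of DNA-dependent protein kinase, fell by 1.12 in log2, from 8.44 ± 0.05 to 7.33 ± 0.10 (SD, n = 3 each; limma adjusted p = 7.36e-06), with other probe sets at −1.09 and −0.41. XRCC6, its DNA-binding partner, was at −0.27 (adjusted p = 0.0281) and the helicase DHX36 at −0.33 (adjusted p = 0.0189). The other DHX36 probe sets were at −0.03 and −0.20 (limma adjusted p = 0.869 and 0.175) and, from a dim 2.45, at −0.48 (adjusted p = 0.00283). The other XRCC6 probe set was at −0.40 (adjusted p = 0.0117). XRCC6 lost its call without any empty vector array or USP48 replicate 1 (−0.278 to −0.236), and DHX36 without empty vector replicate 1 (−0.268) or USP48 replicate 2 (−0.291). Subunits of RNA polymerase III, which transcribes AT-rich DNA into an RNA ligand, were higher in 2 cases: POLR3C at 0.71 (adjusted p = 1.2e-04) and POLR3F at 0.39 (adjusted p = 0.0205). POLR3F lost its call without empty vector replicate 2 or USP48 replicate 1 or 2 (0.278, 0.398 and 0.357). Without empty vector replicate 1 only 1 gene of the list was lower. With hybridization control scaling 1 was higher and 10 lower, with a median of −0.38.

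Interferon ligands and their early targets were higher in 13 of 14 cases and lower in 0 (0 also at an unadjusted p under 0.05 in limma), with a median of 2.14, and in 10 of 14 with hybridization control scaling (median 1.85). IFNB1, the ligand that the STING route is known to induce, read 2.51 ± 0.22 in the empty vector arrays, below the median of every array, and 5.52 ± 0.23 with the USP48 label (SD, n = 3 each; difference 3.01, limma adjusted p = 3.63e-07). CCL5 was at 4.23, IFIT1 at 3.41 and IFIT3 at 3.24. The 1 gene not called was IFNA1, at 0.11. The AIM2 difference of 3.51 lay among those of this list, and the IFI16 difference of 1.90 below its median.

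AIM2, IFI16 and ZBP1 are also expressed by blood cells. Leukocyte markers were read as a description only, because the arrays hold RNA of an established cell line. Of 12 measured, 1 rose and 0 fell (0 were lower and 3 higher at an unadjusted p under 0.05 in limma), and 7 had means below the median of every array in both groups. The log2 of their summed level ran from 7.03 to 7.22 in the empty vector arrays and from 7.23 to 7.36 in the USP48-labelled arrays. PTPRC, the common leukocyte antigen CD45, was at 1.96 and 1.88 in the 2 groups. The 1 marker that rose, CD2, was at 0.29 (adjusted p = 0.036) and at −0.00621 with hybridization control scaling; on omission of any array except USP48 replicate 3 its adjusted p lay between 0.0571 and 0.139.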

How the data were processed

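The deposited values of 6 Affymetrix arrays are on a log2 scale, 1 per probe set, made by the authors with RMA per the submitters' processing notes (version not given in the sources used here). They ran from 0.19 to 13.2. RMA equalises arrays, so a change of total RNA cannot be seen. No detection calls were used; the number of arrays, 3 per group, limits the precision. Array medians ran from 3.74 to 3.79, and 0 columns were identical.

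The arrays hold 54675 probe sets: 62 controls, 41091 with 1 symbol, 1801 several and 11721 none; 41037 matched RefSeq GRCh38.p14, with 0 symbols changed. Members were tested with limma 3.58.1 in R 4.3.3 (lmFit, eBayes, two-sided) over all 54613 other probe sets, and 19775 genes by their brightest probe set, each with Benjamini-Hochberg adjustment over all features and a threshold of 0.05. The fit was tested on simulated data. Single measures had a two-sided exact permutation test. RefSeq promoters matched 3 of the 6 members. Figures used matplotlib 3.10.9 in Python 3.11.15.

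The members, the 10 lists, the motifs and the alternatives were chosen with earlier results of these data known. The genes named are the members, USP48, up to 3 called genes per list by the size of the difference (otherwise the 2 brightest), and the 3 genes nearest each called member. Further list genes were named after their values were seen: those that complete a count of 5 or fewer (XRCC6, DHX36, SURF4, ENPP1, CASP1, CARD16, CASP6, TRIM28, IFNA1, CDH1), ALB, KRT8, KRT18, KRT19 and PTPRC by level, and IFNB1, IRF3, TBK1, PYCARD and RIPK3. List members with no probe set of their own were not analysed here. Alternatives were quantile normalization, median centring, scaling on hybridization controls, a prior with an intensity trend, robustly fitted, omission of the dimmest 33.3% of features, the mean of a gene's probe sets, the replicate number as a block, each array left out, an adjusted p under 0.01 and a limit of 1.5-fold.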

Additional observations from a re-analysis of the deposited data

How the results depend on the processing

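AIM2, the 3 IFI16 and the 2 STING1 probe sets kept direction and call under every alternative run. No paired values are used in the report, because the labels do not say that the replicate numbers pair the arrays. Deviations from the group means correlated at −0.02, 0.11 and −0.02 between arrays of the same number. With 3 arrays per group these values cannot decide whether the numbers pair. With the replicate number as a block, 9 member probe sets were called higher and 0 lower, 5 other sensors, 4 cGAS-STING genes and 2 clearance genes lower, and no member lost its call. With hybridization control scaling CGAS was at 0.116, 0.047 and −0.173 in its probe sets (0.116 as a gene) and ZBP1 242020_s_at at 0.375. At an adjusted p under 0.01, CGAS at 0.409 and 0.341 and ZBP1 at 0.668 lost their calls, and so did CGAS at a limit of 1.5-fold. The mean of both ZBP1 probe sets was 0.323.

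Counts moved as follows. With hybridization control scaling, higher and lower genes were 2 and 1 for PYHIN, 1 and 10 for other sensors, 3 and 12 for cGAS-STING, 2 and 2 for the inflammasome, 1 and 2 for ZBP1 partners and 1 and 9 for clearance. At an adjusted p under 0.01 there were 1 and 1 other sensors, 0 lower cGAS-STING genes and 1 and 0 clearance genes. At 1.5-fold there were 1 and 1 other sensors, 3 and 0 cGAS-STING genes, 3 higher inflammasome genes, 2 and 0 ZBP1 partners and 1 and 0 clearance genes. An intensity trend gave 5 lower other sensors, 4 lower cGAS-STING and 2 lower clearance genes, quantile normalization 1 lower cGAS-STING and 2 lower clearance genes, omission of the dimmest 33.3% of genes 5 and 2, and the mean of all probe sets 5 lower other sensors and 3 lower clearance genes. The cause was not tested.

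With 1 array left out, the differences of CGAS ranged from 0.335 to 0.496 (1559051_s_at), 0.292 to 0.397 (242077_x_at) and 0.00572 to 0.252 (1561708_at), and those of ZBP1 from 0.505 to 0.895 (242020_s_at) and −0.345 to 0.154 (208087_s_at, turning to 0.0478, 0.154 and 0.126 without empty vector replicate 2 and USP48 replicates 1 and 3; as a gene it was called at −0.345, limma adjusted p = 0.0433, without USP48 replicate 2). Member probe sets called higher ranged from 6 to 9. Higher and lower counts ranged from 2 to 3 and 0 to 1 (PYHIN), 1 to 2 and 1 to 3 (other sensors), 8 to 8 and 0 to 2 (cGAS-STING), and 1 to 2 and 0 to 1 (clearance). Among single genes, direction turned with hybridization control scaling for USP48 229812_at (−0.0523), PYHIN1 (−0.01), CASP6 (−0.0487), IFNA1 (−0.187), PYCARD (−0.014) and CD2 (−0.00621), with the mean of probe sets for LSM11 (−0.39), and without USP48 replicate 3 for RIPK3 (0.0187, within −0.089 to 0.0187 over the arrays left out). Dim values (AIM2 controls, ZBP1, CGAS 1561708_at) have no detection call.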

Other observations

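TREX1, the exonuclease that limits cytosolic DNA, and ATRIP, a partner of the checkpoint kinase ATR, share 3 probe sets, whose signal cannot be assigned to either gene. The 3 are given as deposited only. Hybridization control scaling lowers each difference by 0.29, and whether their calls hold under it is not given here. Probe set 205875_s_at read 7.55, 7.60 and 7.45 in the empty vector arrays and 8.28, 8.31 and 7.80 in the USP48-labelled arrays. Its log2 difference was 0.60 (SE 0.14, limma adjusted p = 0.0078), and the groups did not overlap. Probe set 34689_at read 7.87, 7.97 and 7.77 against 8.59, 8.51 and 8.07, with a log2 difference of 0.52 (SE 0.13, adjusted p = 0.0165), also without overlap. Probe set 1552937_s_at read 5.64, 5.81 and 5.52 against 5.30, 5.61 and 5.42, and the groups overlapped. Its log2 difference was −0.21, with a 95% interval of −0.46 to 0.04 (adjusted p = 0.22). Of the 3, the pair that was called had USP48 replicate 3 as the lowest array of its group, as in the 9 member probe sets that rose.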
